A study of Mus musculus with 13 samples.

Results

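The genes described here are type I interferon-stimulated genes, a group that cells switch on together when interferon binds its receptor. They were taken from the deposited table by name: all 36 listed genes had a column, and the 31 with a mean of at least 0.5 RPKM (reads scaled by gene length and library depth) over all libraries were tested, among 13343 genes tested of 20971 in the table. RNA was sequenced from the cortex of C57BL/6 mice aged 6 months: 6 libraries came from APPPS1 mice and 7 from APPPS1;Apoe-/- mice. APPPS1 mice carry mutant human transgenes for amyloid precursor protein and presenilin driven by the neuronal Thy1 promoter. Both groups are labelled as APPPS1. The second group differs in lacking Apoe, which encodes apolipoprotein E, the main lipid carrier of the brain. The comparison asks how the loss of Apoe alters cortical expression in mice labelled as APPPS1. There is no group without the transgenes, so no level can be set against a brain without amyloid, and Apoe is missing from every cell of the knockouts.

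Type I interferons bind the receptor formed by IFNAR1 and IFNAR2, whose Janus kinases phosphorylate transcription factors of the STAT family. With IRF9 these form a complex that enters the nucleus and binds the interferon-stimulated response element (ISRE) in the promoters of its targets. The targets sense viral nucleic acids, block viral entry, translation and budding, or tune the pathway itself. In brains with amyloid plaques a minority of microglia, the resident macrophages, is known for expressing these genes, but astrocytes, endothelial cells and neurons can express them too.

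The response element is visible in the promoters of several members, which are shown because 11 of the 16 lower members with a promoter in RefSeq hold an exact match to it. The stretches are the 200 bases before the start of the gene in RefSeq (GRCm38.p6, the mm10 assembly), written in the direction of transcription, with each match to TTTCNNTTTC or its reverse complement GAAANNGAAA in capitals. Ifit1 (chr19:34640689-34640888, plus strand), Isg15 (chr4:156200819-156201018, minus strand) and Oas1a (chr5:120907526-120907725, minus strand) stand for the effectors, the ubiquitin-like pathway and the sensors. Ifit3 (chr19:34583329-34583528, plus strand) and Ifit3b (chr19:34607757-34607956, plus strand) show a near-identical pair.
Ifit1: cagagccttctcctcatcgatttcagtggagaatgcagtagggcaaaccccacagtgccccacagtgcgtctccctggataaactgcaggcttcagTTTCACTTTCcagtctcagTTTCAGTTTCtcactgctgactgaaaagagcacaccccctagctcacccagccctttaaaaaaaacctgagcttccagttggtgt
Isg15: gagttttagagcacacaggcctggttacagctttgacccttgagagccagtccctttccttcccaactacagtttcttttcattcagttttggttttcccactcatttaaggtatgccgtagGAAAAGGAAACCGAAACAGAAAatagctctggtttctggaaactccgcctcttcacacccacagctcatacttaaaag
Oas1a: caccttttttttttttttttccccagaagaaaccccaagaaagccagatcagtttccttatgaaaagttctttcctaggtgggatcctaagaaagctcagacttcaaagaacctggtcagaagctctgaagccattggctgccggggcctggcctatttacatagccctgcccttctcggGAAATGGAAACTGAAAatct
Ifit3: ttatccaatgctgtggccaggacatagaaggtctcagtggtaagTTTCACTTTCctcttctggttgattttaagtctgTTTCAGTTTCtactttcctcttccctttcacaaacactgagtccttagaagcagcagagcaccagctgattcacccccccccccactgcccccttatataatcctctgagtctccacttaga
Ifit3b: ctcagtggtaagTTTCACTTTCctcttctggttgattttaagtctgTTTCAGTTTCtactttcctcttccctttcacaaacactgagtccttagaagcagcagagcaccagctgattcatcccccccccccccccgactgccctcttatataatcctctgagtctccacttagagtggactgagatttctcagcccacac
Ifit1 held its matches 104 and 85 bases before the start. Isg15 had 3, each overlapping the next, 78, 72 and 66 bases before the start, and Oas1a had 2 that overlap, 20 and 14 bases before it. Ifit3 and Ifit3b carry the same pair of matches, and the annotated start of Ifit3b lies further from them, so that the distances are 156 and 122 bases for Ifit3 and 188 and 154 bases for Ifit3b.

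RefSeq held a promoter, 250 bases before to 50 after the start, for 26 of the 36 members. A match to the response element on either strand stood in 11 of 16 promoters (68.8%) of the members that fell. It stood in 2 of 9 (22.2%) of the tested members that were not called, namely Ifih1 and Stat2, and in 368 of 10250 (3.59%) over all genes tested. The other tested genes of the interferon pathway had it in 17 of 56 promoters (30.4%), and the microglial markers in 1 of 10 (10%). Oasl2, Ifit2, Ifi44, Lgals3bp and Sp100 fell without an exact match in this window, and Oasl2 was among the members with the smallest p-values. Sites that differ from the searched letters by a base or more were not counted, so a missing match does not show that the element is absent. These matches describe letters in the promoters and not binding.

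Most of these genes were expressed at a lower level in the cortex without Apoe. Of the 31 tested members 21 were lower in APPPS1;Apoe-/- cortex, 0 were higher and 10 were not called (limma with Benjamini-Hochberg adjustment over all genes tested, called at an adjusted p under 0.05; at an unadjusted p under 0.05, 25 were lower and 0 higher). Over all genes tested, 4.74% were lower and 3.48% higher. The list of members was chosen with earlier results of these data known. The change is log2(RPKM + 0.5) in the knockouts minus that in the APPPS1 libraries, which understates the change of weak genes, and 30 of the 31 changes were negative. Their median was -0.47, against -0.0077 over all genes tested, and they ran from -1.36 for Ifi27l2a to 0.0062 for Slfn2. In 8 members the highest knockout was lower than the lowest APPPS1 library, as it was in 2.17% of all genes tested. These were Ddx58, Eif2ak2 and Oas1a, Ifit3 and Lgals3bp, Sp100 and Parp9, and Usp18. The labels do not give sex, cage or batch, and the p-values set the group difference against the spread between these libraries. With a sex score from Xist and genes of the Y chromosome as a covariate, 22 members were lower, beside 594 of 13343 genes tested.

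The libraries differed in ways that touch these values. The knockouts had fewer alignments, 18455493 to 34538031 per library against 28402328 to 77005806, which makes their values for weak genes less precise. Apoe itself was 463 to 670 RPKM in the APPPS1 libraries and 4.01 to 6.35 RPKM in the knockouts, as labelled. App, to which transgene reads can align, was 106 and 116 RPKM in APPPS1;Apoe-/- replicates 2 and 5 and 176 to 217 RPKM in the other 11 libraries. Thy1 was 52.2 and 56.9 RPKM in APPPS1;Apoe-/- replicates 2 and 5 and 172 to 245 RPKM in the other 11 libraries. Whether the mice of replicates 2 and 5 carried the transgenes was not tested. Without these low-App libraries 17 of the 21 calls among members remained, against 3.31% lower over all genes then tested. When log2 alignments entered the fit as a covariate 8 remained, against 0.989% over all genes tested, and all 31 changes were negative. The replicate numbers follow the order of the samples and have no other meaning.

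**Figure D1:**
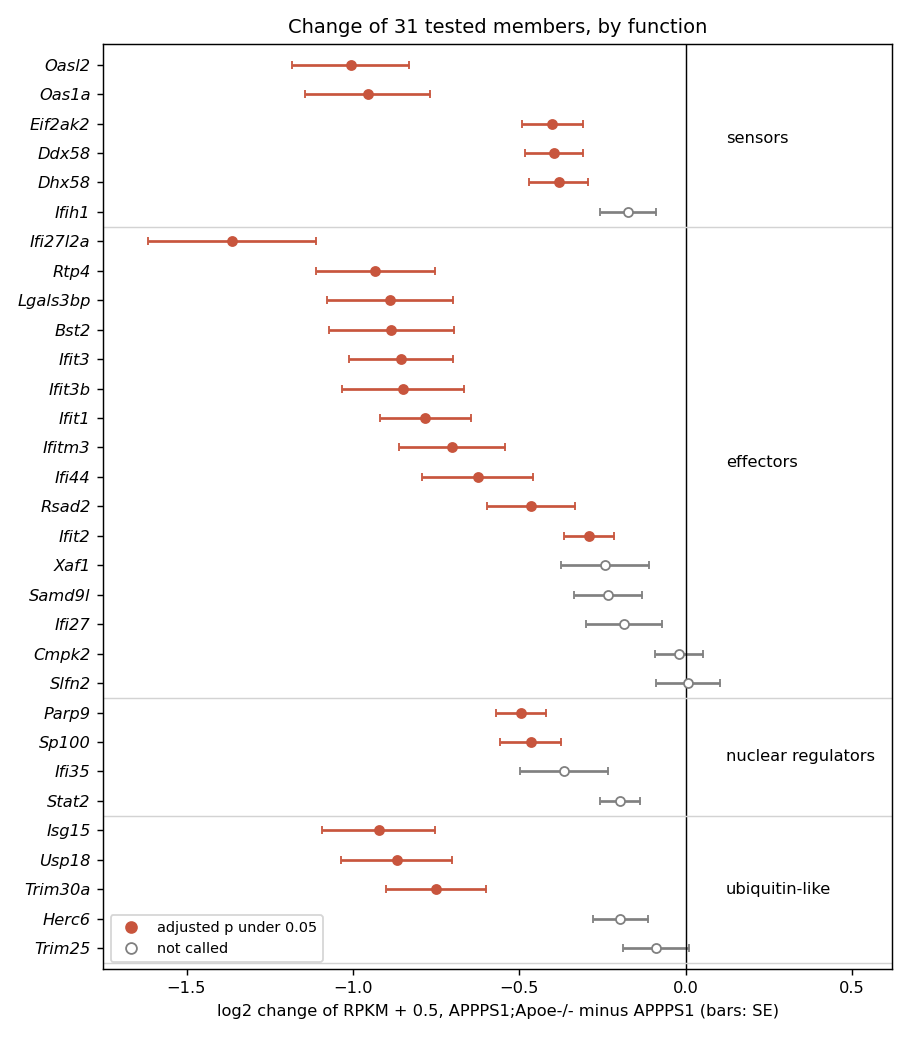
Change of log2(RPKM + 0.5), APPPS1;Apoe-/- minus APPPS1, on the horizontal axis for the 31 tested members, listed by function on the vertical axis; points are fitted changes and bars their standard errors (n = 6 and n = 7), filled where the adjusted p was under 0.05. Ifi27l2a lies farthest to the left at -1.36, and Cmpk2 and Slfn2 lie next to 0.

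Among the sensors of double-stranded RNA and other nucleic acids, 5 of 6 tested members fell, with a median change of -0.40. The 2 tested genes of the oligoadenylate synthetase family had the larger changes, a difference that was not tested. Oasl2, which encodes a protein of that family with ubiquitin-like domains, ran from 3.52 to 7.95 RPKM in the APPPS1 libraries (median 5.36) and from 1.40 to 3.54 RPKM in the APPPS1;Apoe-/- libraries (median 2.74). The groups touched only in APPPS1 replicate 3 and APPPS1;Apoe-/- replicate 7, and the other 6 knockouts lay below all APPPS1 libraries. Its change was -1.01 ± 0.18 (SE, adjusted p = 0.00302). Oas1a, whose enzyme makes the second messenger that activates RNase L, lay between 2.17 and 3.88 RPKM (median 3.14) and between 0.539 and 2.09 RPKM (median 1.51), with no overlap. It fell by 0.96 ± 0.19 (SE, adjusted p = 0.00558) on the log2 scale. The longest transcripts of Oas1a and its neighbour Oas1g were identical at 97.5% of 1860 aligned bases, so reads may have been shared between them.

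The RNA helicases of the RIG-I family and the kinase PKR detect viral RNA in the cytosol. Ddx58, which encodes RIG-I, was 1.09 to 1.39 RPKM in the APPPS1 libraries (median 1.29) and 0.546 to 1.04 RPKM in the knockouts (median 0.908). The groups did not overlap, and the change was -0.40 ± 0.09 (SE, adjusted p = 0.0117). Dhx58, which encodes the regulatory relative LGP2, went from a mean of 1.41 to 0.966 RPKM (adjusted p = 0.0152). Eif2ak2, which encodes the kinase PKR that halts translation on binding double-stranded RNA, spanned 1.70 to 1.91 RPKM in the APPPS1 libraries (median 1.78) and 0.805 to 1.66 RPKM in the knockouts (median 1.31). It showed little spread among the APPPS1 libraries, did not overlap, and fell by 0.40 ± 0.09 (SE, adjusted p = 0.0139). Ifih1, which encodes MDA5, the sensor of long double-stranded RNA, was 0.867 to 1.15 RPKM in the APPPS1 libraries (median 1.07) and 0.727 to 1.15 RPKM in the knockouts (median 0.766). It was not called (-0.17 ± 0.08, SE, adjusted p = 0.209): 4 knockouts lay below all APPPS1 libraries, and APPPS1;Apoe-/- replicate 1 was as high as the highest of them. The difference in response between Ifih1 and Ddx58 was not tested.

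**Figure D2:**
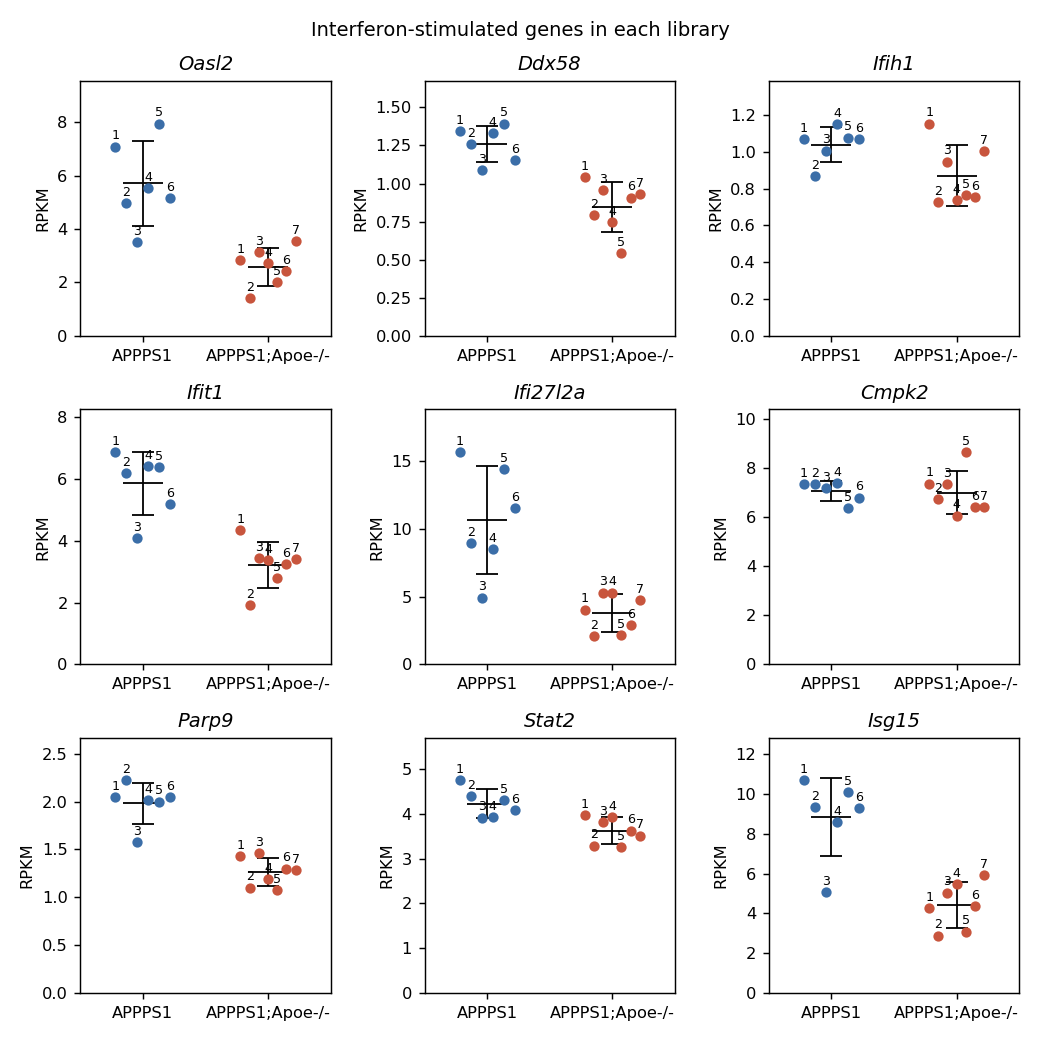
RPKM of 9 members by library, each point labelled by its replicate; the 2 genotypes stand side by side on the horizontal axis, lines and error bars mark mean and SD (n = 6 and n = 7), and the vertical axes start at 0. Oasl2, Ddx58, Ifit1, Ifi27l2a, Parp9 and Isg15 are lower in the APPPS1;Apoe-/- libraries, while Cmpk2 lies at 6.35 to 7.38 and 6.06 to 8.64 RPKM, and APPPS1 replicate 3 is the lowest of its group for most of them.

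The antiviral effectors and other induced proteins formed the largest class, with 11 of 16 tested members lower and a median change of -0.66. The largest change of all members was that of Ifi27l2a, which encodes a small membrane protein of the ISG12 family. It ran from 4.93 to 15.7 RPKM in the APPPS1 libraries (median 10.2) and from 2.08 to 5.31 RPKM in the knockouts (median 4.05). APPPS1 replicates 1 and 5 were high, APPPS1 replicate 3 fell within the range of the knockouts, and 5 of 7 knockouts lay below all APPPS1 libraries. The group means were 10.7 ± 4.01 RPKM (SD, n = 6) and 3.80 ± 1.41 RPKM (SD, n = 7), and the change was -1.36 ± 0.25 (SE, adjusted p = 0.00413).

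Its neighbour Ifi27 was not called, though the difference between these genes was not tested. Ifi27 starts at position 103434211 of chromosome 12 (mm10), on the strand opposite to Ifi27l2a, which ends at position 103443680. It was the most abundant of the members, at 60.2 to 93.3 RPKM in the APPPS1 libraries (median 72.4) and 48.5 to 76.1 RPKM in the knockouts (median 68.0). The groups overlapped broadly, with a change of -0.19 ± 0.11 (SE, adjusted p = 0.333).

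The Ifit genes, whose proteins bind viral RNA and block its translation, form a cluster on chromosome 19, where Ifit2 starts at position 34550694 and Ifit1 ends at position 34650009. All 4 members from this cluster fell. Ifit1 was 4.09 to 6.86 RPKM in the APPPS1 libraries (median 6.28) and 1.93 to 4.33 RPKM in the knockouts (median 3.37), with 1 knockout, replicate 1, above APPPS1 replicate 3. Its change was -0.78 ± 0.14 (SE, adjusted p = 0.00304). Ifit3, a partner of Ifit1 in RNA binding, was 22.3 to 34.0 RPKM (median 29.8) and 9.19 to 20.3 RPKM (median 16.4), without overlap (-0.86 ± 0.16, SE, adjusted p = 0.00401). Ifit3b went from a mean of 14 to 7.73 RPKM (adjusted p = 0.00975). The longest transcripts of Ifit3 and Ifit3b are identical at 97.8% of 1700 aligned bases, so how reads were divided between this pair is uncertain. Ifit2 had the smallest change of the cluster, from 4.02 to 3.20 RPKM (-0.29, adjusted p = 0.0260), and lost its call without any one of APPPS1 replicates 1, 4 or 6 (adjusted p = 0.0617, 0.0517 and 0.0610).

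Rtp4, which encodes a chaperone of membrane receptors that also restrains interferon signalling, was 6.34 to 10.8 RPKM in the APPPS1 libraries (median 8.04) and 2.37 to 6.66 RPKM in the knockouts (median 4.58). Only APPPS1;Apoe-/- replicate 7 rose above the lowest APPPS1 library, and the change was -0.93 ± 0.18 (SE, adjusted p = 0.00496). Several abundant effectors fell as well. Lgals3bp, a secreted glycoprotein that binds galectins, went from 38.4 to 21.0 RPKM (-0.89, adjusted p = 0.00909), with no overlap. Bst2, which encodes tetherin and holds budding virus at the cell surface, went from 15.1 to 8.01 RPKM (-0.88, adjusted p = 0.00880). Ifitm3, which blocks fusion of viruses in endosomes, went from 71.0 to 43.7 RPKM (-0.70, adjusted p = 0.0130). Both overlapped between the groups, with 5 of 7 knockouts below all APPPS1 libraries. Ifi44, at 1.12 and 0.565 RPKM, and Rsad2, at 0.908 and 0.532 RPKM, were the weakest effectors called (adjusted p = 0.0309 and 0.0402). Ifi44 lost its call without APPPS1 replicate 1, 4 or 5 or APPPS1;Apoe-/- replicate 2 or 5 (adjusted p from 0.0520 to 0.0719). Rsad2 lost it without APPPS1 replicate 1, 2, 4, 5 or 6 or APPPS1;Apoe-/- replicate 2, 4 or 5 (adjusted p from 0.0506 to 0.0869).

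Of the 5 effectors that were not called, 2 had nearly equal means. Cmpk2, which encodes a mitochondrial nucleotide kinase, was 6.35 to 7.38 RPKM in the APPPS1 libraries (median 7.25) and 6.06 to 8.64 RPKM in the knockouts (median 6.73), with its highest value in APPPS1;Apoe-/- replicate 5, a low-App library (-0.02 ± 0.07, SE, adjusted p = 0.897). It lies on chromosome 12 head to head with Rsad2, which encodes viperin: Rsad2, on the minus strand, ends at position 26456452 and Cmpk2 starts at position 26469204. Slfn2, a schlafen gene known for keeping immune cells quiescent, was 3.65 to 5.21 RPKM (median 4.75) and 3.81 to 5.28 RPKM (median 4.77), and was the single member with a positive change (0.0062, adjusted p = 0.977). The signs of both changes lie too close to 0 to hold: Slfn2 was -0.042 with the alignments covariate and Cmpk2 0.0064 with median centring, neither called.

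Samd9l, an inhibitor of cell growth, lay at 0.789 to 1.28 RPKM in the APPPS1 libraries (median 0.977) and 0.534 to 0.994 RPKM in the knockouts (median 0.808, adjusted p = 0.166). Xaf1, which promotes cell death, was 2.12 to 4.32 RPKM (median 3.24) and 1.71 to 3.25 RPKM (median 2.65, adjusted p = 0.273). Both had negative changes, of -0.23 and -0.24, with overlapping groups.

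Nuclear regulators were lower in 2 of 4 tested members, with a median change of -0.42. Parp9, which encodes a macrodomain protein that enhances interferon signalling, had the smallest adjusted p of all members. It was 1.58 to 2.22 RPKM in the APPPS1 libraries (median 2.03) and 1.08 to 1.46 RPKM in the knockouts (median 1.28), without overlap, and fell by 0.49 ± 0.08 (SE, adjusted p = 0.00104). Sp100, a component of nuclear bodies that silence viral genomes, was 1.87 to 2.42 RPKM (median 1.97) and 1.02 to 1.76 RPKM (median 1.38), again without overlap (-0.47 ± 0.09, SE, adjusted p = 0.00571). Stat2, the STAT specific to type I and III interferon, was 3.92 to 4.75 RPKM (median 4.20) and 3.25 to 3.98 RPKM (median 3.63). It narrowly missed the threshold (-0.20 ± 0.06, SE, adjusted p = 0.0584), with 5 of 7 knockouts below all APPPS1 libraries. Ifi35, a leucine zipper protein, was 4.79 to 7.67 RPKM (median 6.34) and 3.02 to 6.50 RPKM (median 4.95), with a change of -0.37 ± 0.13 (SE, adjusted p = 0.1002). APPPS1;Apoe-/- replicate 4 was the highest knockout for Ifi35. Without that library Stat2 and Ifi35 were both called (adjusted p = 0.0377 and 0.0378), so that 4 of 4 nuclear regulators were lower. Calls over all genes tested also rose without it, from 633 lower and 465 higher to 854 and 742.

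In the ubiquitin-like pathway 3 of 5 members fell, with a median change of -0.75. Isg15, the ubiquitin-like modifier that is attached to newly made proteins, was 5.08 to 10.7 RPKM in the APPPS1 libraries (median 9.32) and 2.88 to 5.93 RPKM in the knockouts (median 4.38). APPPS1 replicate 3 was the one APPPS1 library within the range of the knockouts, and the change was -0.92 ± 0.17 (SE, adjusted p = 0.00401). Usp18, which removes that modifier and also shuts off the interferon receptor, was 6.03 to 10.8 RPKM (median 8.31) and 2.18 to 5.70 RPKM (median 4.72), without overlap (-0.87 ± 0.17, SE, adjusted p = 0.00498). Trim30a, a TRIM protein that restrains Toll-like receptor signalling, was 1.31 to 2.66 RPKM (median 1.96) and 0.466 to 1.42 RPKM (median 1.0), with a change of -0.75 ± 0.15 (SE, adjusted p = 0.00640).

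Herc6 and Trim25 were not called. Herc6, the main Isg15 ligase of mice, was 2.80 to 4.01 RPKM in the APPPS1 libraries (median 3.20) and 2.30 to 3.35 RPKM in the knockouts (median 2.82), with a change of -0.20 ± 0.08 (SE, adjusted p = 0.153). Trim25, a ligase that acts on RIG-I, was 0.445 to 0.920 RPKM (median 0.605) and 0.440 to 0.664 RPKM (median 0.537), with a change of -0.089 ± 0.10 (SE, adjusted p = 0.627). With a mean of 0.587 RPKM over all libraries it was the weakest member tested.

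The 5 listed members below that filter were Mx1, Oas2, Zbp1, Parp14 and Ddx60, with means over all libraries of 0.239, 0.247, 0.265, 0.270 and 0.461 RPKM. All 31 tested members also had a mean of at least 0.5 RPKM in the knockouts alone. Ddx60, an RNA helicase, averaged 0.594 and 0.348 RPKM, and Zbp1, the sensor of Z-form nucleic acids, averaged 0.387 and 0.160 RPKM in the APPPS1 and knockout libraries. Parp14, an ADP-ribosyltransferase, averaged 0.347 and 0.203 RPKM. When the filter was dropped, Parp14 was lower (-0.27, adjusted p = 0.0449), Ddx60 and Zbp1 lay just over the threshold (-0.36 and -0.43, adjusted p = 0.0554 and 0.0569), and Mx1 and Oas2 were not called (-0.27 and -0.061, adjusted p = 0.117 and 0.760).

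The members varied together across libraries, also within a group. APPPS1 replicate 3 was the lowest of its group for 25 of the 31 tested members and for 18 of the 21 called ones. It also had the most alignments of all libraries, 77005806. APPPS1 replicates 1 and 5 were the highest of their group for 12 and 13 members. Among the knockouts, replicate 2 was the lowest for 19 members and replicate 5 for 8, the libraries with low App, and replicates 7 and 3 were the highest for 10 and 9. The mean log2(RPKM + 0.5) of the 31 members was 2.12 in APPPS1 replicate 3 and 2.41 to 2.64 in the other APPPS1 libraries. In the knockouts it was 1.47 in replicate 2, 1.68 in replicate 5 and 1.89 to 2.12 in the other 5. The group means were 2.44 and 1.90, a difference of -0.55, and the difference was -0.42 without the low-App libraries. When APPPS1 replicate 3 was left out, all 21 calls remained and the median change was -0.52.

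**Figure D3:**
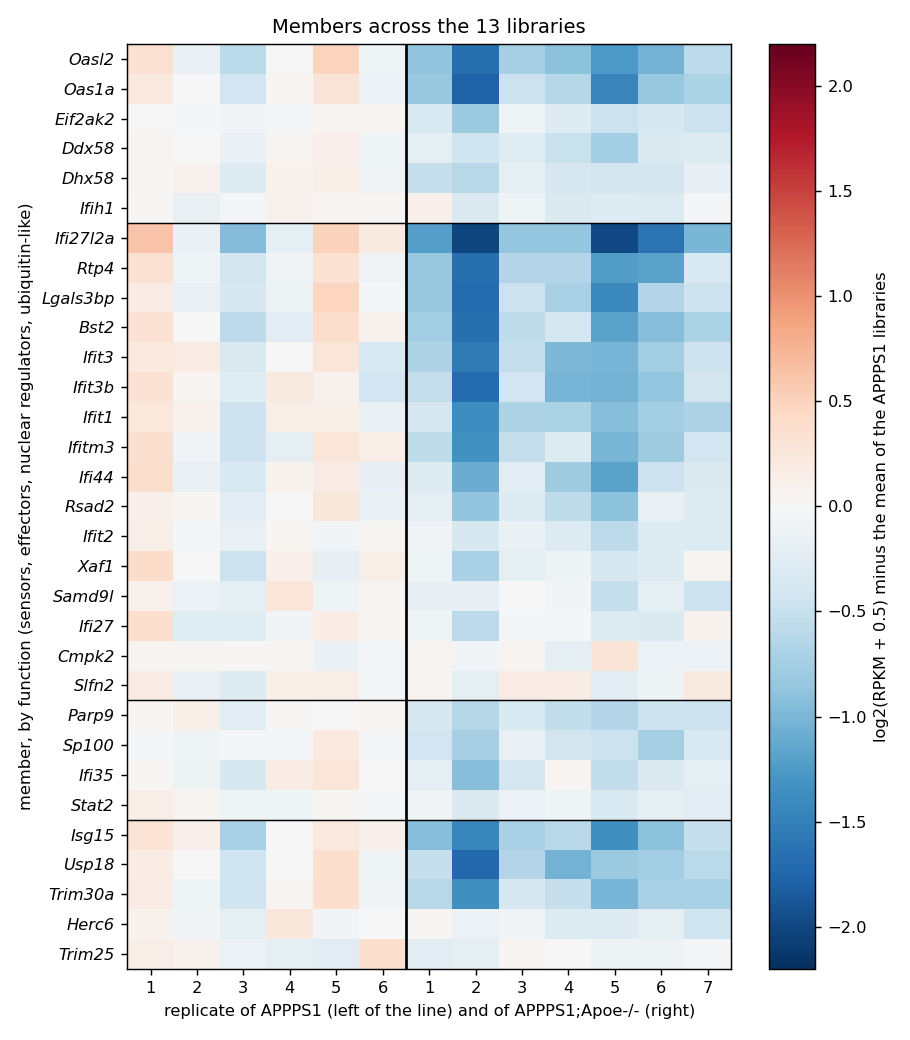
Heat map of the 31 tested members (vertical axis, by function) in the 13 libraries (horizontal axis); the colour gives log2(RPKM + 0.5) minus the mean of the 6 APPPS1 libraries, blue for lower and red for higher. APPPS1;Apoe-/- replicates 2 and 5 are darkest blue, and APPPS1 replicate 3 is blue for most members.

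Most microglial markers were lower in the knockouts as well. Of 14 tested markers of microglia 10 were lower (among them Csf1r, Cx3cr1 and Gpr34), against 4.74% of all genes tested. The median change of the 14 was -0.51. Aif1, P2ry12, Sall1 and Tmem119 were not called (adjusted p = 0.0866, 0.0927, 0.128 and 0.776). Tmem119 averaged 6.33 RPKM in the APPPS1 libraries and 6.04 RPKM in the knockouts (-0.076). The summed level of the list was 504 to 592 RPKM in the APPPS1 libraries and 244 to 447 RPKM in the knockouts. In bulk tissue, fewer cells of a type and less RNA per cell cannot be told apart. The mean log2 value of the markers differed by -0.49 between the groups, and by -0.30 without the low-App libraries. Mean log2 values of the members minus those of the markers were -2.22 ± 0.153 (SD, n = 6) and -2.27 ± 0.164 (SD, n = 7). The difference was -0.05, and -0.12 without the low-App libraries, and neither difference was tested. In APPPS1 replicate 3 the markers averaged 4.63, within the 4.53 to 4.78 of its group, while the members were lowest there. In APPPS1;Apoe-/- replicate 6 the markers averaged 4.455, the highest of the knockouts. The members averaged 1.89 there, the lowest of the knockouts apart from replicates 2 and 5. The part of the number of microglia in the lower level of the members was not tested.

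**Figure D4:**
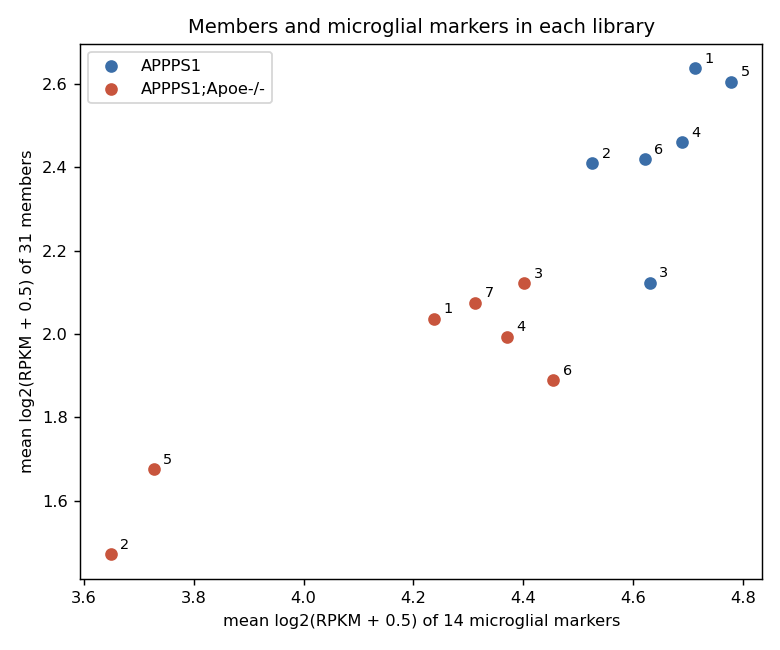
Mean log2(RPKM + 0.5) of the 31 members (vertical axis) against that of 14 microglial markers (horizontal axis), each point being a library labelled by its replicate; the axes do not start at 0. The knockouts lie lower on both axes, replicates 2 and 5 lowest, and APPPS1 replicate 3 lies at 2.12 for the members and 4.63 for the markers, to the right of every knockout.

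Markers of other cell types were read in the same fit. The 5 T cell markers and the 3 markers of plasmacytoid dendritic cells were all below the filter, and their summed levels were 0.307 to 0.895 and 0.0592 to 0.122 RPKM in the APPPS1 libraries and 0.202 to 0.90 and 0.0332 to 0.199 RPKM in the knockouts. By limma none of 5 endothelial, 5 neuronal and 3 neutrophil markers tested was called; at an unadjusted p under 0.05 there were 1, 1 and 0, the first 2 lower. Of 5 astrocyte markers 1 was lower, and of 5 oligodendrocyte markers 3 were higher, with summed levels of 716 to 1012 and 814 to 1286 RPKM. Of 2 tested markers of perivascular macrophages 1 was higher. The single tested B cell marker was not called.

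The pathway that controls the members was read from a second list of 95 genes, also chosen with earlier results known. Of this list 88 were in the table and 67 were tested. Of these 18 were lower and 1 was higher, with a median change of -0.18. The shares over all genes tested were 4.74% lower and 3.48% higher. Of 7 listed ligand genes 3 were in the table, and the other 4 were not analysed here. Ifnb1, which encodes interferon beta, was listed at 0 in 12 of 13 libraries and at 0.0388 RPKM in APPPS1 replicate 1, and none of the 3 reached the filter.

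Of 6 receptor and Janus kinase genes 2 were lower. Ifnar2, which encodes a chain of the type I interferon receptor, was 2.29 to 3.26 RPKM in the APPPS1 libraries (median 2.73) and 1.70 to 2.53 RPKM in the knockouts (median 2.0). Its change was -0.33 ± 0.09 (SE, adjusted p = 0.0366). Ifnar1, the other chain, was 4.52 to 6.54 RPKM (median 5.21) and 4.44 to 5.0 RPKM (median 4.71) and was not called (-0.16, adjusted p = 0.182). Ifngr2, a chain of the receptor for interferon gamma, was 13.3 to 17.6 RPKM (median 15.2) and 11.4 to 13.9 RPKM (median 12.1), with a change of -0.30 ± 0.06 (SE, adjusted p = 0.00805). The Ifnar2 call ended without the low-App libraries (-0.26, adjusted p = 0.131), and also without APPPS1 replicate 1, 2, 5 or 6 or APPPS1;Apoe-/- replicate 2, 3, 5 or 6 (adjusted p from 0.0618 to 0.0921).

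Transcription factors were lower in 4 of 7. Irf7, the factor that amplifies interferon production and is itself induced, was 3.25 to 7.37 RPKM in the APPPS1 libraries (median 4.86) and 1.27 to 3.46 RPKM in the knockouts (median 2.44). It fell by 1.05 ± 0.19 (SE, adjusted p = 0.00358), about as much as Oasl2, with APPPS1 replicate 3 again the lowest of its group. Irf9, the DNA-binding partner of the STATs, was 5.96 to 9.64 RPKM (median 7.66) and 2.75 to 5.86 RPKM (median 4.54), without overlap (-0.71 ± 0.15, SE, adjusted p = 0.0101). Irf5, named here after its value was seen, was lower as well (-0.49, adjusted p = 0.0270). Irf1, Irf2 and Irf3, named likewise, were not called. Irf3, which acts before interferon is made, averaged 2.73 RPKM in the APPPS1 libraries and 2.77 RPKM in the knockouts (0.02, adjusted p = 0.939). Irf1 averaged 3.07 and 2.84 RPKM (-0.097, adjusted p = 0.408), and Irf2 10.7 and 10.9 RPKM (0.026, adjusted p = 0.838).

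By limma 0 of 9 tested genes of upstream sensing and its adaptors, such as Mavs, Tbk1 and Myd88, were called. At an unadjusted p under 0.05 there were 1 higher and 1 lower. Their changes were negative in 7 and positive in 2. Unc93b1, named after its value was seen, narrowly missed the threshold (-0.41, adjusted p = 0.0544). Among 7 negative regulators and nucleases 2 were lower and 1 was higher. Ptpn6, which encodes the phosphatase SHP-1 of blood and microglial cells, was 6.00 to 6.93 RPKM in the APPPS1 libraries (median 6.40) and 2.37 to 4.84 RPKM in the knockouts (median 4.16), with a change of -0.69 ± 0.13 (SE, adjusted p = 0.00491). Trex1, the DNase that degrades cytosolic DNA, was 8.73 to 10.5 RPKM (median 9.65) and 6.27 to 8.57 RPKM (median 6.98), with a change of -0.38 ± 0.07 (SE, adjusted p = 0.00508). The groups did not overlap for either. Adar, which edits double-stranded RNA and so keeps MDA5 from sensing it, went the other way, with 12.5 to 14.9 RPKM in the APPPS1 libraries (median 13.1) and 14.9 to 18.4 RPKM in the knockouts (median 16.8), with a change of 0.31 ± 0.06 (SE, adjusted p = 0.00449). Adar stayed higher with the alignments covariate (0.35, adjusted p = 0.0384) and without the low-App libraries (0.32, adjusted p = 0.00680).

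The remaining 38 tested genes of the list are further induced genes, and 10 of them were lower. Phf11d, a PHD finger gene, was 0.788 to 1.26 RPKM in the APPPS1 libraries (median 1.04) and 0.283 to 0.728 RPKM in the knockouts (median 0.559), with a change of -0.60 ± 0.11 (SE, adjusted p = 0.00378). Ifi204, a DNA-binding protein of the pyrin and HIN domain family, was 1.01 to 1.84 RPKM (median 1.15) and 0.0632 to 0.770 RPKM (median 0.579), with a change of -0.84 ± 0.17 (SE, adjusted p = 0.00564). Neither overlapped between the groups. Uba7 and Ube2l6, the activating and conjugating enzymes that attach Isg15, named after their values were seen, were lower as well (-0.41 and -0.35, adjusted p = 0.00980 and 0.0349). So was the chemokine gene Cxcl10, named likewise, at 2.70 and 1.23 RPKM (-0.97, adjusted p = 0.00870). Abundant induced genes such as Ly6e, at 96.9 and 90.0 RPKM, and Shisa5, at 63.7 and 62.0 RPKM, also named after their values were seen, were not called (adjusted p = 0.377 and 0.701).

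**Figure D5:**
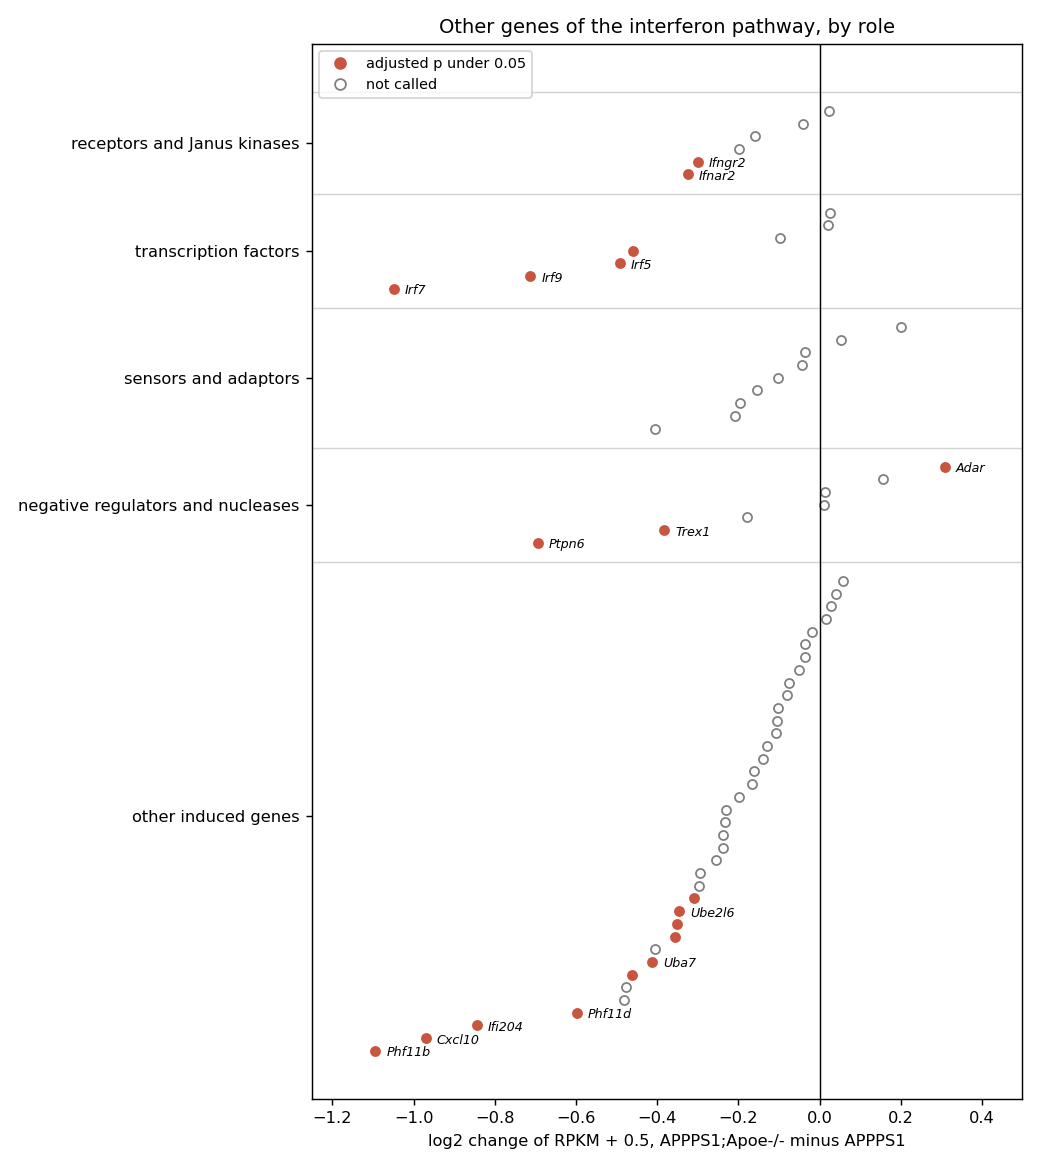
Change of log2(RPKM + 0.5), APPPS1;Apoe-/- minus APPPS1, on the horizontal axis for the 67 tested genes of the pathway list, grouped by role on the vertical axis; filled points had an adjusted p under 0.05, and those described in the text carry the gene name. Irf7 and Phf11b lie farthest to the left of 0 at -1.05 and -1.09, Adar is the filled point to the right at 0.31, and no sensor or adaptor is filled.

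Among the settings tried, the most member calls ended with the number of alignments, lower in the knockouts, in the fit. Over all genes tested, lower calls went from 633 to 132 with that covariate. With log2 alignments as a covariate the calls of Oasl2, Dhx58, Ifit1, Ifit3, Ifi27l2a, Parp9, Isg15 and Usp18 remained. Their changes were -1.16, -0.48, -0.91, -0.92, -1.47, -0.54, -1.07 and -1.05. The other 13 calls ended, with changes of -0.97 to -0.27 and adjusted p of 0.0521 to 0.169. They were Ddx58, Eif2ak2, Oas1a, Ifit2, Ifit3b, Rsad2, Bst2, Ifitm3, Rtp4, Ifi44, Lgals3bp, Sp100 and Trim30a. The median change of the 31 members was -0.50 in that fit and -0.47 in the main one. Without the low-App libraries the calls of Dhx58, Ifit2, Rsad2 and Ifi44 ended. The median was then -0.41 over the same 31 members and -0.37 over the 32 members then tested. Of the pathway list 2 lower genes were left with the covariate, Irf7 (-1.24, adjusted p = 0.0187) and Phf11d (-0.63, adjusted p = 0.0432), and 12 without the low-App libraries. Of the microglial markers 0 were called by limma with the covariate, though 9 of 14 were at an unadjusted p under 0.05, and 8 were called without the low-App libraries. Whether the number of alignments or the low-App libraries account for part of the lower level was not tested.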

How the data were processed

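Cortex was flash frozen, its RNA extracted with Trizol and libraries made with Clontech SMARTer reagents, per the labels' protocols. The authors deposited RPKM per gene in 1 table, with a count of alignments per library; Partek and the mm10 build are named in the submitters' processing notes. Aligner, annotation, counting rule and strand use were not given in the sources used here. The genotype in the table was that of the labels for 13 of 13 libraries.

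Values were transformed to log2(RPKM + 0.5). Genes averaging at least 0.5 RPKM entered limma 3.58.1 under R 4.3.3 (lmFit, eBayes with trend; two-sided; Benjamini-Hochberg). The code was tested on simulated data. Members and lists were chosen with earlier results of these data known. Named with values from each group were up to 4 called members per function with the smallest adjusted p, every uncalled tested member, 6 fixed pathway genes and 6 more called ones; some of these are not reported here. Positions are from GENCODE mouse release 21, promoters from RefSeq, and transcript identity from local alignment. Alternatives were other pseudocounts, filters, scalings, variance models and covariates, and left-out libraries. Python 3.11.15 with pandas 2.3.3, numpy 2.4.6 and matplotlib 3.10.9 made tables and figures.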

Additional observations from a re-analysis of the deposited data

Results flagged for a closer look

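Of 96 groups of values looked at, 6 held a library far from the others of its group; chance gives about 1 in 20. APPPS1 replicate 5 was the highest of its group for Sp100 (2.42 RPKM, next 1.99), Ifi204 (1.84 RPKM, next 1.31) and Oas2 (0.438 RPKM, next 0.286). APPPS1 replicate 3 was the lowest for Parp9 (1.58 RPKM, next 2.0). APPPS1;Apoe-/- replicate 4 was the highest of the knockouts for Zbp1, at 0.437 RPKM against 0.159 RPKM for the next. Ifnb1 was 0.0388 RPKM in APPPS1 replicate 1 and listed at 0 in the other APPPS1 libraries.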

How the results depend on the processing

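No reported change of a called gene reversed its sign in any of the 25 settings tried. When log2 alignments were a covariate the numbers of lower genes were 8 for the members (2 sensors, 3 effectors, 1 nuclear regulator), 2 for the pathway list and 0 for the microglial markers (limma; 9 of 14 at an unadjusted p under 0.05). With that covariate and without the low-App libraries they were 12 for the members (2 sensors, 6 effectors, 1 nuclear regulator), 8 for the pathway list and 4 for the microglial markers. Over all genes tested, 132 of 13343 were lower with the covariate, and 199 of 13365 with it and without the low-App libraries. Without the filter 4 microglial markers were lower, as were 517 of all 20915 genes then tested. Higher pathway genes numbered 2 with quantile normalization and with median centring, where the split of all genes tested into lower and higher turned from 633 and 465 to 608 and 687 and to 531 and 701. Leaving out 1 library at a time left 18 to 22 members lower, with medians from -0.42 to -0.52. It left 7 to 12 microglial markers, 2 to 4 nuclear regulators and 1 to 2 higher pathway genes. Over all genes tested it left from 428 lower, without APPPS1 replicate 6, to 854 lower, without APPPS1;Apoe-/- replicate 4. Without APPPS1;Apoe-/- replicate 4 there were 4 lower nuclear regulators and 2 higher pathway genes, beside 854 lower and 742 higher over all genes tested. Rsad2 was not called in 15 settings, Ifi44 in 9 and Ifit2 in 6. The cause of these shifts was not tested. No paired analysis was possible because the labels carry no replicate numbers. The RPKM table gives no read counts per gene, so the sampling error of single values is unknown.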
